A study of Homo sapiens with 4 samples.

Results

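The 4 human Argonaute genes, AGO1, AGO2, AGO3 and AGO4, encode the proteins that hold microRNAs, and here the RNA of these genes was itself looked at as a target of Argonaute. The members were the regions of a PAR-CLIP list that overlap, on the strand of the gene, the listed span of each gene on the human build hg19. These spans were chr1:36348810-36395211 on the plus strand for AGO1, chr8:141541265-141645646 on the minus strand for AGO2, chr1:36396319-36522063 on the plus strand for AGO3 and chr1:36273829-36321215 on the plus strand for AGO4. In all, 125 of the 211947 regions of the list were members, 48 in AGO1, 29 in AGO2, 39 in AGO3 and 9 in AGO4. The older symbols of the genes are EIF2C1, EIF2C2, EIF2C3 and EIF2C4. On the plus strand of chromosome 1 the listed spans follow each other in the order AGO4, AGO1 and AGO3, and no other protein-coding gene begins between them in RefSeq (GRCh38.p14). The end of AGO1 lies 1107 nt before the start of AGO3, and that of AGO4 27594 nt before the start of AGO1.

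PAR-CLIP maps where a protein touches RNA: cells take up 4-thiouridine, a photoreactive uridine, long-wave ultraviolet light links it to bound protein, and the RNA that comes down with the protein is sequenced. The series has 4 libraries of HEK293, a human embryonic kidney cell line, and the list does not name those it was made from. For 3 libraries AGO1 was precipitated through a FLAG tag from cells stably expressing His/FLAG/HA-tagged protein, after 16 h in 200 µM 4-thiouridine. For 1 library AGO2 was precipitated with the antibody 11A9 to the protein itself, after 16 h in 100 µM, and the labels of that library name no tag although the design text of the series speaks of tagged AGO1 and AGO2 lines. All cells were crosslinked at 365 nm. The list gives 1 score for each region and names no library. AGO1 and AGO2 binding therefore cannot be told apart, nothing has a replicate error, and no test between samples was possible. The depth of the libraries is unknown, and the score, a whole number from 1 to 1000 whose meaning is not stated, is the authors' own value for each region.

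As background, Argonaute loaded with a microRNA is known to act mostly through sites in the 3′ untranslated region. This is the part of a messenger RNA after the coding sequence, and there Argonaute recruits the TNRC6 proteins, through which the message is repressed. AGO2 is the one human Argonaute long known for cutting a fully paired target, and AGO1, AGO3 and AGO4 share its overall fold and its use of microRNAs. In genes of this kind short coding exons are set apart by long introns, and the 3′ untranslated region follows in the last exon. No exon map of hg19 was used here, so regions were not assigned to coding exons. In its place each listed span was split by position into its last 10000 nt and the inner part before that, and regions on the same strand past the listed 3′ end were followed as a chain for as long as the gap between neighbours was at most 2000 nt. A tagged transgene and the chromosomal gene share coding sequence, and RNA from them cannot be told apart in the list. How reads that match more than 1 Argonaute gene were placed is not stated in the labels or headers.

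The 4 genes fell into different patterns. AGO2 had the highest scores, in wide regions of which many stood alone, and a dense chain of narrow, mostly low regions lay past its listed end. AGO1 and AGO3 also had their highest scores upstream of the narrow regions at their ends, in clusters of wide and narrow regions. The AGO4 span had 1 inner region and 8 narrow regions of low score at its 3′ end, and 2 regions of scores 21 and 25 lay past that end. Members were taken from the strand of the gene. On the opposite strand of the same spans there were 0 regions, out of 125 on both strands, which by the limit of 3 counts allows an antisense share of up to 2.4%, for counting error only.

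**Figure D1:**
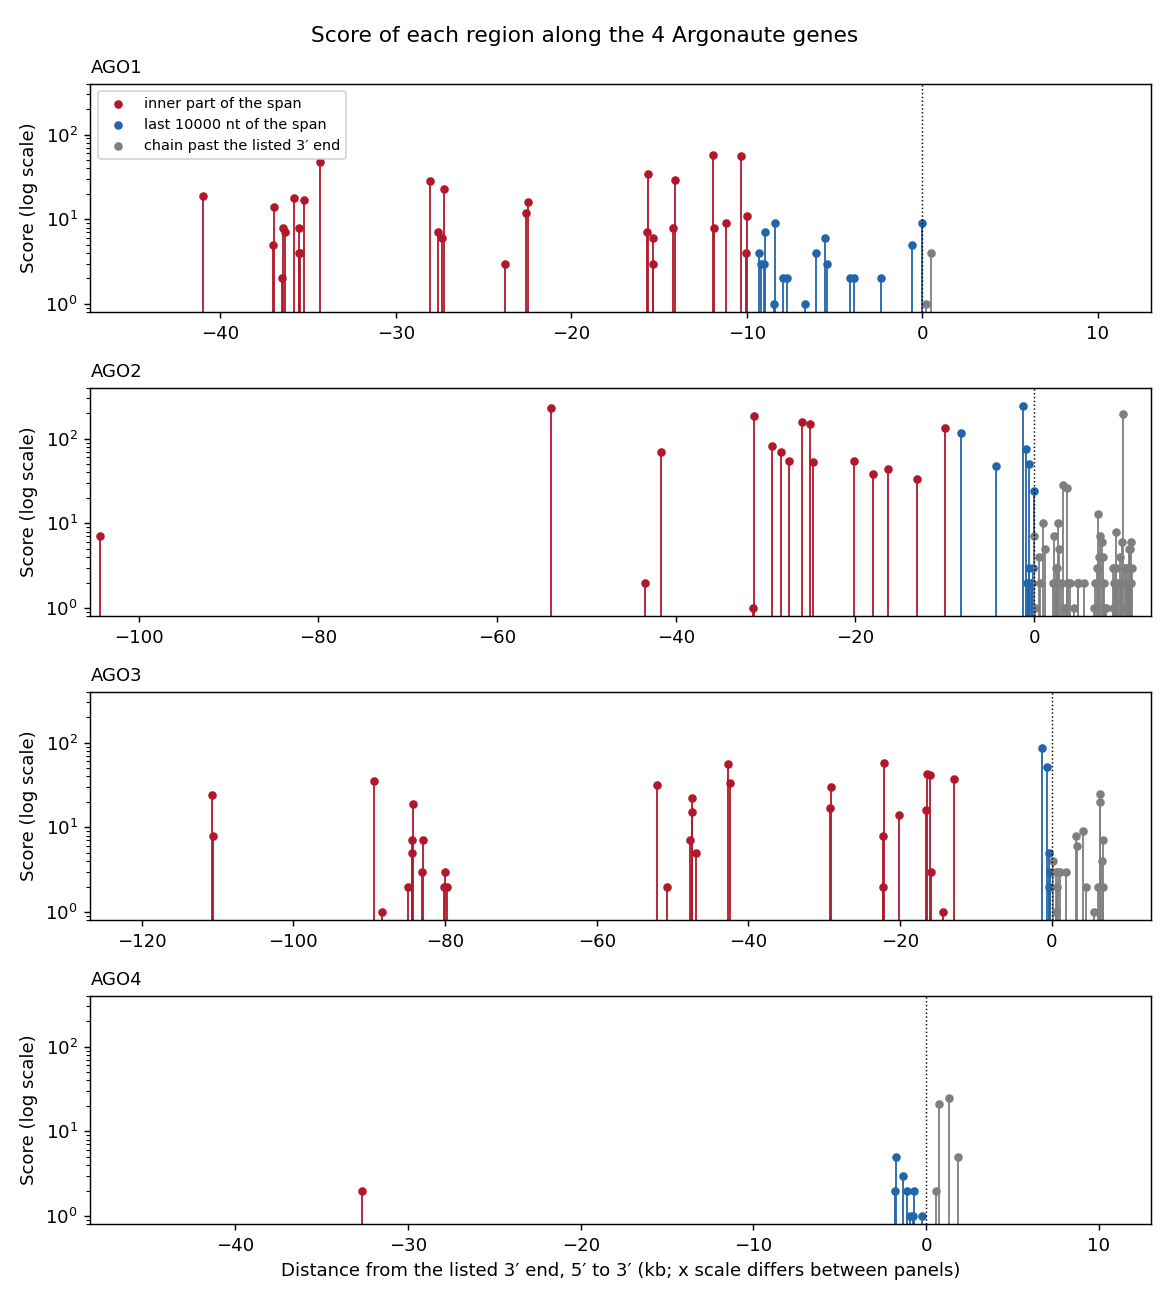
Score of each region (log scale) against its distance from the listed 3′ end of the gene, in kb, with 1 panel for each gene and the 5′ end at the left. Points and stems mark the inner part of the span, the last 10000 nt and the chain past the end. AGO2 reaches 240, AGO3 86 and AGO1 58 within their spans, while no region of the AGO4 span is above 5.

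Set per length of listed span, introns included, AGO1 had the most regions and AGO2 the most score. The density per length of message was not computed. AGO1 held 1.03 regions per kb of its span (exact Poisson 95% interval 0.763 to 1.37), followed by AGO3 with 0.310 (0.221 to 0.424), AGO2 with 0.278 (0.186 to 0.399) and AGO4 with 0.190 (0.0868 to 0.361). The intervals of AGO3, AGO2 and AGO4 overlapped, and that of AGO1 lay above all 3. This order rests on the listed ends: with the chains included, AGO2 had 0.763 regions per kb (0.612 to 0.940), an interval that overlapped that of AGO1, 1.07 (0.791 to 1.40), and AGO3 had 0.430 (0.326 to 0.557). By summed score per kb of span the order changed: AGO2 had 18.5, AGO1 11.8, AGO3 5.63 and AGO4 0.401. These sums have no error, and the intervals cover counting error of regions only. AGO2 carried 60.2% of the summed score of 3204 over the 4 genes, AGO3 22.1%, AGO1 17.1% and AGO4 0.593%. The amount of each RNA in the cells was not measured here.

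Over the 4 genes, members had higher scores and were wider than the median region of the list, with AGO4 below it on both counts (median score 2 and median width 28 nt). Scores had a median of 7 (interquartile range 3 to 33) for the 125 members, against 3 (2 to 5) for the 211822 other regions. The median width was 48 nt (32 to 94), against 32 nt (25 to 43). Of the 125 members, 40 had a score of 20 or more (32.0%, Wilson 95% interval 24.5 to 40.6), where 4.09% of the list did. AGO2 supplied 20 of the 40. Without AGO2 the share was 20 of 96 (20.8%). A width of at least 100 nt was found in 26 members (20.8%, 14.6 to 28.7), where 1.81% of the list was as wide. AGO2 supplied 15 of these, and without it the share was 11 of 96 (11.5%). Regions of 1 gene come from the same RNA and are not replicates, so these shares describe the 4 genes and were not tested against the list.

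Within AGO2 the inner part was made of wide regions with high scores. Of its 17 regions, 12 were at least 100 nt wide, as were 1.81% of the list. All 12 scored 20 or more, as did 2390 of the 3838 list regions of that width. In the whole list 1.13% of regions were both that wide and that high. A score of 20 or more was found in 14 of the 17 inner AGO2 regions (82.4%, Wilson 95% interval 59.0 to 93.8), where 4.09% of the list had it. The median width was 125 nt (range 19 to 193) and the median score 54 (range 1 to 232). Of the 17, 5 scored 100 or more, as did 0.264% of the list.

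Read 5′ to 3′, AGO2 began with a narrow region of score 7 at chr8:141645584-141645622, inside the first bases of the span, and then had no region for 50173 nt. The next was the highest of the inner part, 193 nt wide with a score of 232 (chr8:141595218-141595410), a score that 124 regions of the list reached or passed. A region of 23 nt and score 2 followed, then 123 nt with a score of 70 (chr8:141582911-141583033) and 155 nt with a score of 186 (chr8:141572553-141572707). Apart from a 19-nt region of score 1 beside that last one, every further inner region was 81 to 193 nt wide and stood at 33 or above.

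The series went on with 128 nt at a score of 81 (chr8:141570481-141570608), 133 nt at 69 (chr8:141569494-141569626) and 81 nt at 54 (chr8:141568594-141568674). A group of 3 regions came next, 127 nt at a score of 157 (chr8:141567188-141567314), 123 nt at 150 (chr8:141566266-141566388) and again 123 nt at 53 (chr8:141565996-141566118). Scores from 33 to 54 were then met in 4 regions with wide gaps: 54 (chr8:141561411-141561535), 38 (chr8:141559219-141559372), 44 (chr8:141557566-141557723) and 33 (chr8:141554309-141554405). Scores were again high in the last inner region, 193 nt wide with a score of 132 (chr8:141551265-141551457), which ended just outside the last 10000 nt. The 14 inner regions that scored 20 or more thus lay between 33 and 232, with no steady course along the gene.

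The inner regions of AGO2 stood apart from each other. The median gap from one to the next was 1817 nt, and 11 of 16 gaps were at least 1000 nt long. When regions no more than 1000 nt apart were joined into runs, the whole AGO2 span gave 15 runs, 11 of which were a single region. In AGO1, 3 of 12 runs were single, in AGO3 5 of 16 and in AGO4 1 of 2.

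The last 10000 nt of the AGO2 span mixed both kinds of region. It held 12 regions with a summed score of 567. The 2 most upstream were of the inner kind, 130 nt with a score of 116 (chr8:141549424-141549553) and 96 nt with a score of 48 (chr8:141545567-141545662). The highest score of all members, 240, was in a region of 196 nt at chr8:141542519-141542714, 1254 nt before the listed end. Beyond it, 3 regions stood at 75 (chr8:141542145-141542251, 107 nt), 50 (chr8:141541888-141541921, only 34 nt) and 24 (chr8:141541306-141541381, 76 nt), and the other 6 had scores of 2 or 3. The median score of this mixed window was 13.5 (interquartile range 2 to 56.2).

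Past the listed 3′ end of AGO2 the regions did not stop. A chain of 59 regions ran on over 11010 nt, to chr8:141530255, and 37 of its 58 gaps were at most 100 nt long. With a chain gap of at most 1000 nt it had 25 regions and ended before the highest region of the longer chain. The regions were narrow, 36 nt at the median (quartiles 27 and 51), and low, with a median score of 3 (quartiles 2 and 5). Scores of at least 20 were seen in 3 of the 59 (5.08%, Wilson 95% interval 1.74 to 13.9), close to the 4.09% of the list.

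Those 3 regions were unlike each other. One was 225 nt wide with a score of 193 (chr8:141531146-141531370) and carried much of the chain's summed score of 441. The others, 51 nt at 28 (chr8:141537944-141537994) and 72 nt at 26 (chr8:141537517-141537588), lay closer to the listed end. The first 10000 nt past the end held 49 regions. Of the 52746 windows of that length with any region, 78 held as many or more (0.148%). These windows lie on a fixed grid of each chromosome and strand, with a median of 2 regions, while the window past AGO2 begins at the listed end. Past AGO3, AGO4 and AGO1, such windows held 18, 4 and 2 regions (4.27%, 28.2% and 50.9%). By count, the last 10000 nt of the spans held 17 in AGO1 (4.83%), 12 in AGO2 (8.58%), 8 in AGO4 (14.2%) and 6 in AGO3 (19.2%). By summed score, 0.199% of grid windows reached the last 10000 nt of AGO2, 2.79% that of AGO3, 8.10% that of AGO1 and 24.0% that of AGO4. For the first 10000 nt past the ends this was 0.430% for AGO2, 4.59% for AGO3, 9.80% for AGO4 and 49.8% for AGO1. Whether the chain belongs to the AGO2 message was not tested.

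**Figure D2:**
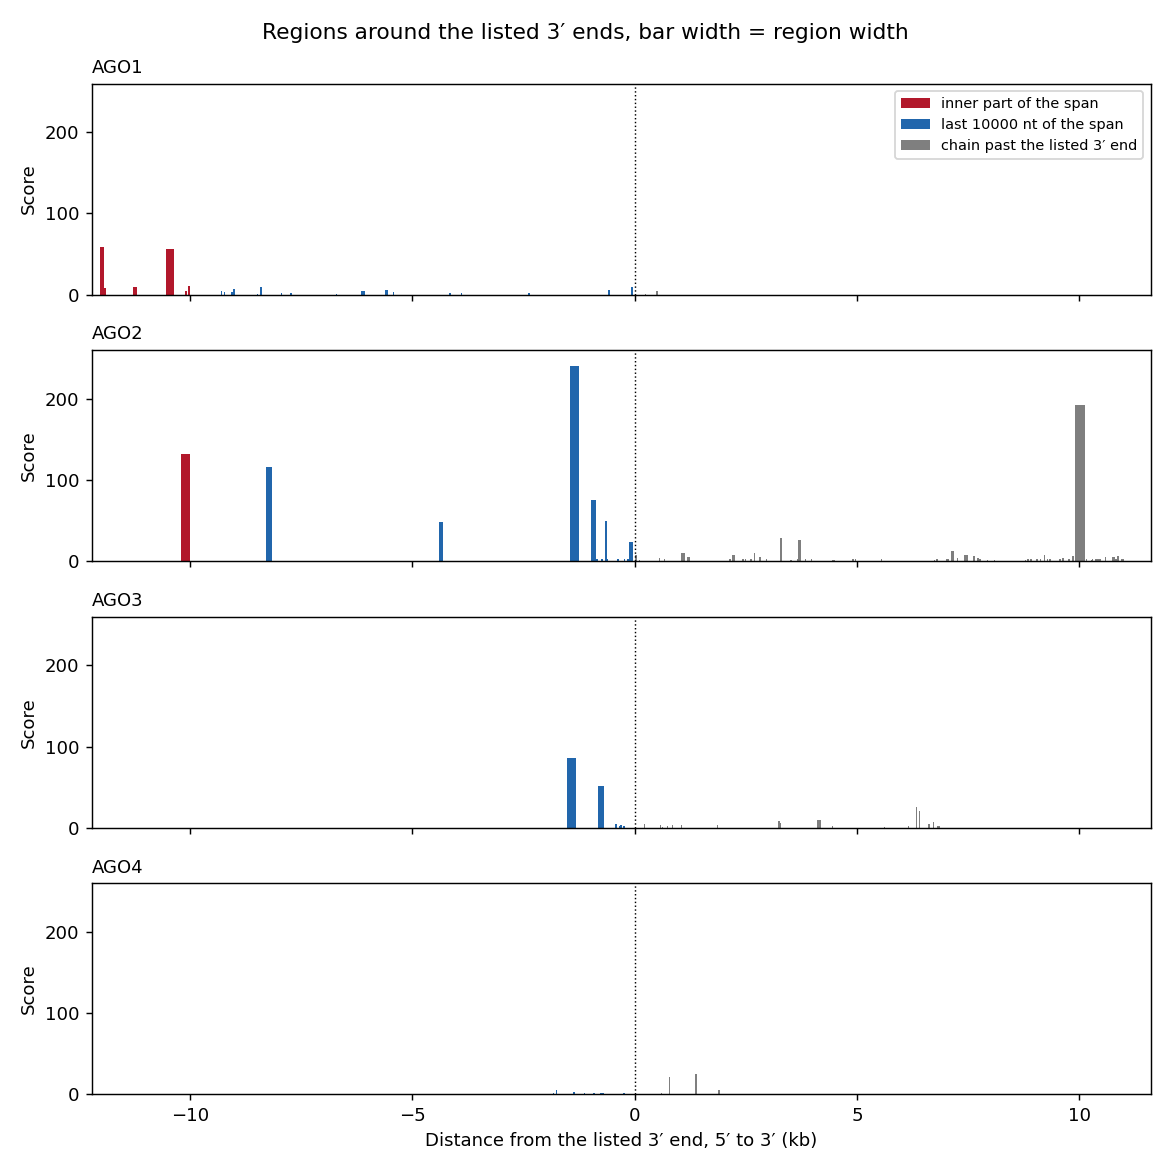
Regions within 12 kb before and after the listed 3′ ends, each drawn as a bar as wide as the region, with its score on a linear axis from 0. AGO2 shows its bar of 240 just before the end and its bar of 193 near the far end of a chain of low bars, AGO3 shows bars of 86 and 51 before the end, and the AGO1 and AGO4 bars of the last 10000 nt stay at 9 or below.

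AGO1 stepped from higher scores in its inner part to low scores at its end. Its 31 inner regions had a median score of 8 (interquartile range 6 to 18.5, highest 58) and a median width of 55 nt. Its last 10000 nt held 17 regions with a median score of 3 (2 to 5, highest 9) and a median width of 34 nt. Among the inner regions 7 of 31 scored 20 or more (22.6%, Wilson 95% interval 11.4 to 39.8), and among those at the end 0 of 17 did (0 to 18.4). The list share was 4.09%, which lies within the interval for the end. The inner part carried 88.1% of the summed score of the span, on 78.4% of its length, and 64.6% of its regions (31 of 48, 50.4 to 76.6). The split depends on the length of the window, since 2 high regions lay just outside it: the last 15000 nt held 52.1% of the regions and 45.3% of the score, and the last 20000 nt 60.4% and 54.5%.

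These 7 AGO1 regions were spread over 24085 nt. Read 5′ to 3′, they were 106 nt with a score of 48 (chr1:36360767-36360872), 93 nt with 28 (chr1:36367080-36367172) and 76 nt with 23 (chr1:36367853-36367928). After these came 84 nt with 34 (chr1:36379517-36379600), 71 nt with 29 (chr1:36381052-36381122), 90 nt with the highest, 58 (chr1:36383194-36383283), and 188 nt with 56 (chr1:36384664-36384851). The widest region of the gene, the last of these, lay 10360 nt before the listed end, and after it no region passed 11. The first region of the gene, at chr1:36354086-36354202, was 117 nt wide with a score of 19.

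Where most AGO2 runs were single regions, AGO1 had clusters, with gaps counted along the genome, introns included. AGO2 too had a run of 10 regions, within 1409 nt at its 3′ end. In AGO1 a run of 11 regions lay within 2704 nt at chr1:36358169-36360872, with a summed score of 135. The largest run, of 14 regions, spanned 4303 nt at chr1:36383194-36387496 and so reached from the high inner regions into the low ones of the last 10000 nt. The median gap between inner regions was 227.5 nt, and 12 of 30 gaps were at most 100 nt. Past the listed end, 2 regions of scores 1 and 4 lay before the start of AGO3.

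AGO3, the gene with the longest span, again had its high scores upstream and at the very end. Its 33 inner regions had a median score of 8 (interquartile range 3 to 30, highest 57) and a median width of 51 nt. Of the 33, 11 scored 20 or more (33.3%, Wilson 95% interval 19.8 to 50.4), where 4.09% of the list did. The last 10000 nt held 6 regions, all in the final 1515 nt. They opened with the highest of the gene, 192 nt with a score of 86 (chr1:36520549-36520740), and with 136 nt at 51 (chr1:36521243-36521378), and the other 4 had scores of 2 to 5.

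The 11 inner AGO3 regions that scored 20 or more lay between 22 and 57. The first, at chr1:36411310-36411379, had a score of 24, the next, at chr1:36432558-36432673, 35, and that at chr1:36469942-36470066, 32. The region at chr1:36474515-36474606 had a score of 22, and a pair 174 nt apart had 56 (chr1:36479261-36479341) and 33 (chr1:36479516-36479639). Further on, 30 (chr1:36492813-36492886) and 57 (chr1:36499841-36499934) were followed by a pair of 43 (chr1:36505450-36505559) and 41 (chr1:36505915-36506041), and by 37 (chr1:36509056-36509150). Between the cluster of 3 low regions that ends at 36442327 and the region at 36469942, AGO3 had no region for 27614 nt.

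Past the listed end of AGO3 a chain of 18 regions ran on over 6855 nt, to chr1:36528918. Its median score was 3 (interquartile range 2 to 6.75) and its median width 31 nt. Of the 18, 2 scored 20 or more (11.1%, Wilson interval 3.10 to 32.8). The list share was 4.09%, which lies within that interval. The 2 regions were each 30 nt wide, at chr1:36528389-36528418 with a score of 25 and at chr1:36528460-36528489 with a score of 20. The 9 chain regions of 30 to 49 nt, these 2 among them, had a median score of 3, as had list regions of that width. The 7 of 15 to 29 nt had a median of 3, against 2 in the list. The 1 of 50 to 79 nt had a score of 2 and the 1 of 80 to 99 nt a score of 9, against list medians of 6 and 12. With a chain gap of at most 1000 nt the chain had 7 regions and ended before both. Whether the chain belongs to the AGO3 message was not tested.

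AGO4 had few and low regions. The 1 inner region, of 27 nt and score 2 (chr1:36288555-36288581), was followed by 30788 nt without any. The other 8 lay within 1636 nt at chr1:36319370-36321005. Their scores were 1 to 5, with a median of 2, and their widths 23 to 51 nt. None of the 9 regions reached a score of 20, where 4.09% of the list did, but with 9 regions the Wilson 95% interval runs up to 29.9%. The highest of the 9 was a region of 23 nt with a score of 5 (chr1:36319440-36319462), and the next, with a score of 3, lay at chr1:36319818-36319868. Of score 2, and next by width, were those at chr1:36320492-36320520, chr1:36319370-36319397 and chr1:36320077-36320104.

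Higher scores than those of the AGO4 span lay past its listed end. A chain of 4 regions there, up to chr1:36323140, had scores of 2, 21 (chr1:36321983-36322010), 25 (chr1:36322574-36322619) and 5. No further plus-strand region was found before the start of AGO1. Over the span and chain together, these 4 regions carried 73.6% of the score, against 2.78% for the inner part and 23.6% for the last 10000 nt. Whether they belong to the AGO4 message was not tested.

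**Figure D3:**
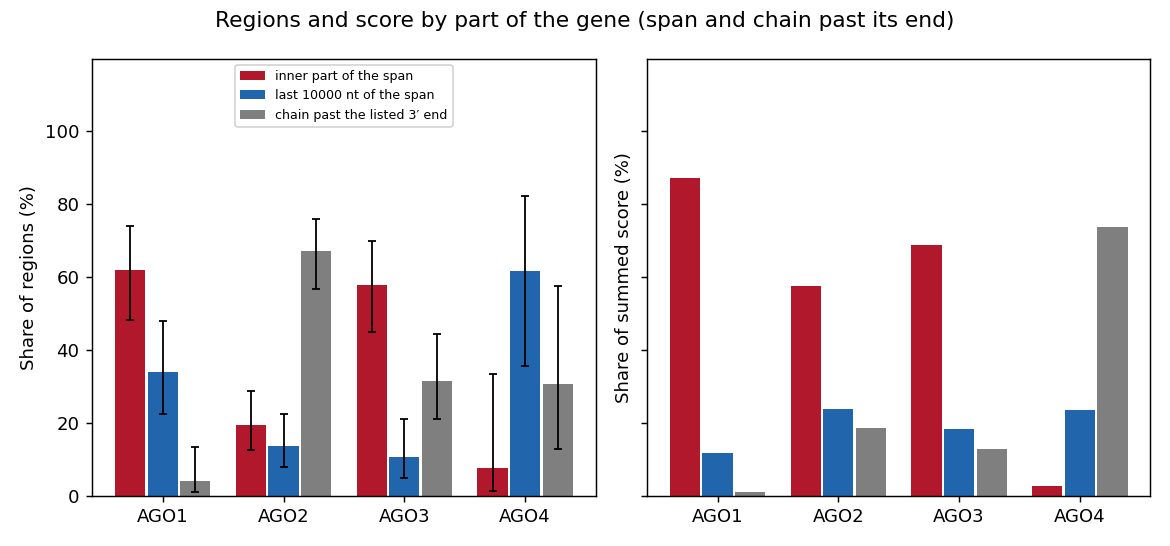
Share of regions (left, with Wilson 95% intervals as error bars, counting error only) and share of summed score (right, no error available) in the inner part of the span, its last 10000 nt and the chain past its end, for each gene. The inner part has 87.3% of the AGO1 score, 57.5% of the AGO2 score and 68.8% of the AGO3 score, but 2.78% of the AGO4 score.

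With span and chain joined, regions and score were divided in opposite ways in AGO2. The inner part held 19.3% of its 88 regions (Wilson 95% interval 12.4 to 28.8) and 57.5% of its summed score of 2371. The chain held 67.0% of the regions (56.7 to 76.0) and 18.6% of the score. In AGO3 the inner part held 57.9% of 57 regions (45.0 to 69.8) and 68.8% of the score, and the chain 31.6% (21.0 to 44.5) and 12.9%. In AGO1 the inner part held 62.0% of 50 regions (48.2 to 74.1) and 87.3% of the score. The place of the listed 3′ end and the gap of 2000 nt decide what counts as chain, and at a gap of 1000 nt the AGO2 and AGO3 chains were shorter, as given above.

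Wide regions have high scores throughout the list, so scores were also read beside those of regions of like width. Regions of 100 to 149 nt had a median score of 21 in the list (interquartile range 13 to 36, 2971 regions). In the inner part, the 7 AGO2 regions of that width had a median of 70 (range 53 to 157), the 5 of AGO3 a median of 35 (32 to 43), and the 3 of AGO1 a median of 19 (18 to 48). Every one of the 7 AGO2 values was above the upper quartile of the list. At 150 to 199 nt, 5 inner AGO2 regions had scores from 38 to 232 with a median of 132, where the list had a median of 40 (26 to 64, 603 regions).

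Set against the median score of list regions within 10% of their own width, inner regions were above it in 15 of 17 cases for AGO2, 24 of 31 for AGO1 and 26 of 33 for AGO3. A further 1, 5 and 5 were equal to it, and 1, 2 and 2 were below. The share of all list regions that lie above the median of their own width was not computed. The median ratio of the inner regions was 2.56 for AGO2, 2.12 for AGO1 and 1.69 for AGO3. In the last 10000 nt it was 2.08 for AGO2, 1.0 for AGO1, 1.12 for AGO3 and 0.875 for AGO4. In the chains past the ends it was 4.79 for the 4 regions after AGO4, 1.5 after AGO3, 1.0 after AGO2 and 0.917 for the 2 regions after AGO1. Beside regions of their own width, then, the inner regions of AGO1, AGO2 and AGO3 stood above the list's median. So did the last 10000 nt of AGO2 and, by little, of AGO3, and the chains after AGO3 and AGO4. By median ratio, the last 10000 nt of AGO1 (7 above, 5 below) and the AGO2 chain (18 above, 24 below) stood at it. These ratios are descriptions, since the regions of a gene share 1 RNA and the list was not tested against them.

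**Figure D4:**
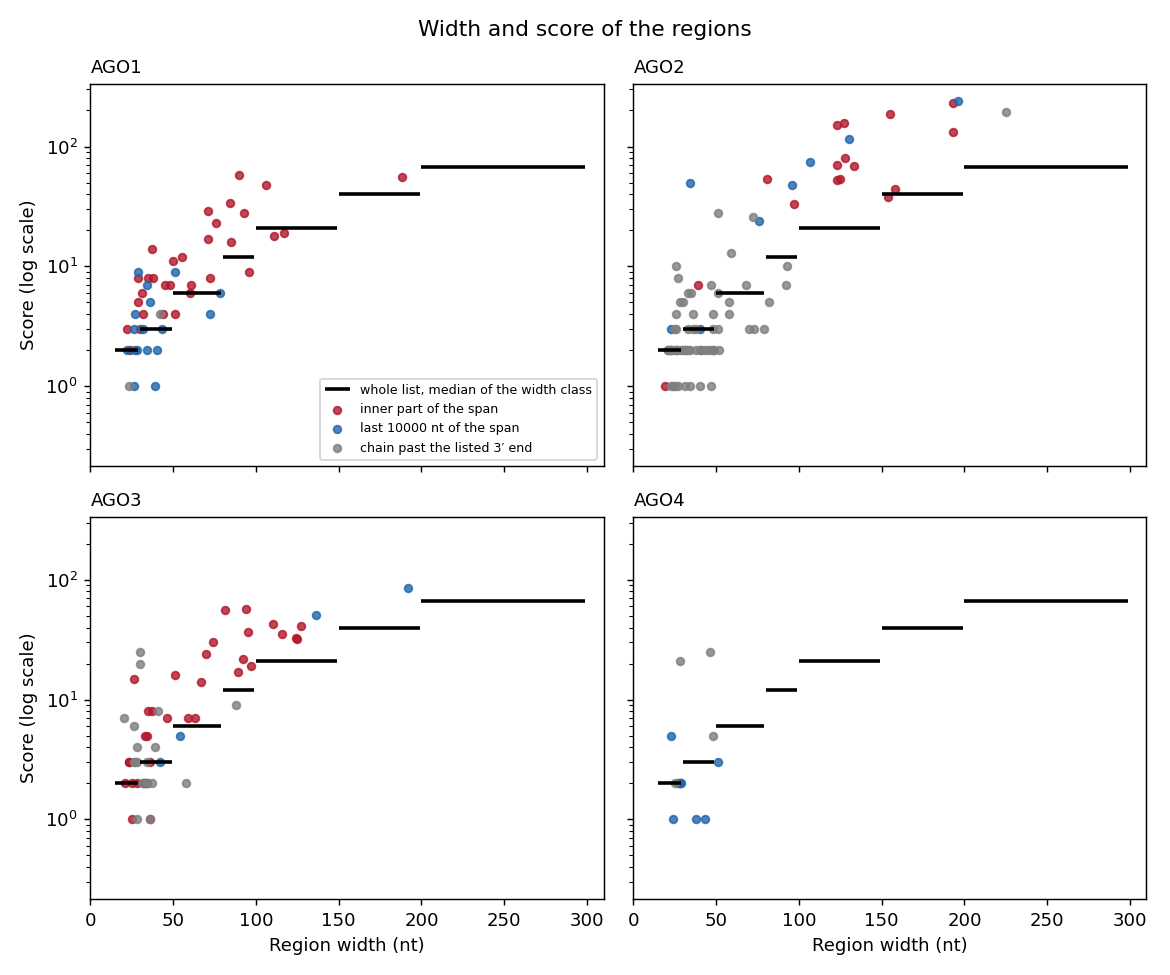
Width of each region in nt against its score (log scale), with 1 panel for each gene, points for the 3 parts and black lines for the median score of the whole list in each width class. Most AGO2 points above 100 nt lie over the lines, the AGO2 chain lies around them below 100 nt, and AGO4 has no point wider than 51 nt.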

How the data were processed

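The series has 3 AGO1 libraries and 1 AGO2 library of HEK293 cells. Its PAR-CLIP regions were read from 1 deposited list, which names no library, so grouping by sample was not possible. Per the file headers, the list is on hg19, its track name is that of the set AGO_good and includes a filter value of 0.05, and per the submitters' processing notes BWA 0.5.8c was used. Neither labels nor headers state the region caller, the pooling or the meaning of the score. The score deposited by the authors is a whole number, read as given, with 7 regions at the highest value of 1000. The other deposited values are coordinates, printed counting from 1.

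A region belonged to a gene if it overlapped the listed span by at least 1 nt on its strand. Shares have Wilson 95% intervals, and densities have exact Poisson intervals, both for counting error only. The members, thresholds and lists were chosen with earlier results of these data known, and the chain past the 3′ ends and the width of 100 nt after the values were seen. Regions named are the 5 highest of each span (ties by width, then position) and those with a score of at least 20. Others were named after their values were seen. A coding-exon count, sequences and other microRNA pathway genes need hg19 exons, bases or gene positions, which were not used here. Assignment, runs and chains were tested on simulated loci. Computation used scipy 1.17.1 and numpy 2.4.6 under Python 3.11.15, tables pandas 2.3.3 and figures matplotlib 3.10.9.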

Additional observations from a re-analysis of the deposited data

How the results depend on the processing

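The yardstick was a factor of 1.5 for a count and the Wilson 95% interval, over the number of regions, for a share. A share of summed score is not a count of regions, so for such a share the interval is a rule of thumb only. Of 109 alternatives for 24 results, 91 stayed within the yardstick and 18 did not. Some of the 91 put no result to the test. Assigning regions by their inner position, or only if wholly inside the span, changed no value in any gene. Setting scores above 100 to 100 could change nothing in AGO1, AGO3 and AGO4, where no score is that high. Of the 109, 16 were chosen after the data were seen. The share of regions in the last 10000 nt of AGO1 (35.4%) was 10.4%, 52.1% and 60.4% with the last 5000, 15000 and 20000 nt, and its share of summed score (11.9%) was 3.66%, 45.3% and 54.5%, since the shorter window drops low regions of the end and the longer ones take in high inner regions. For AGO3 the last 20000 nt gave 30.8% of regions and 41.0% of score, against 15.4% and 21.0%. The AGO2 split depended on the window too. Its last 5000 and 20000 nt gave 37.9% and 55.2% of regions, against 41.4%. By score they gave 23.4% and 42.2%, against 29.4%. These values counted as within the yardstick because the AGO2 intervals are wide (25.5 to 59.3 for regions, 16.0 to 47.6 for score). With spans extended by 5000 nt, AGO2 had 53 regions instead of 29 and 66.0% of them in the window instead of 41.4%, and AGO3 had 34.0% in the window. AGO1 was not extended, as AGO3 starts there. At scores of at least 3, AGO4 kept 2 regions of 9, both in the window (100% of regions and of score, against 88.9% and 89.5%). With a run gap of 2000 nt, AGO1 had 6 runs instead of 12. With a chain gap of 1000 nt, the AGO2 chain had 25 regions instead of 59 and the AGO3 chain 7 instead of 18. At scores of at least 2, the AGO1 chain had 1 region instead of 2. Without the region of highest score, the inner share of score was 85.8% in AGO1, 64.0% in AGO2, 76.9% in AGO3 and 4.26% in AGO4. The coding-exon alternative was not run, for want of hg19 exons. No replicate could be left out, since the list names no library. No paired analysis was possible because values per library were not used here. Depth is unknown, so a low or missing region in AGO4 sets no limit on binding there.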

Other observations

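The list gives a 1-nt position inside each region, which served above in 1 alternative way of assigning regions to genes. On a scale from 0 at the 5′ edge to 1 at the 3′ edge of a region, its median was 0.507 over the 125 members and 0.524 over the other regions of the list. It was 0.625 over the 59 regions of the chain past AGO2 and 0.495 over the 17 inner regions of that gene, and these values were not tested.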
